A study of Rattus norvegicus with 12 samples.

Results

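A1 and A2 are 2 rat lines labelled as induced pluripotent stem (iPS) cells, and their RNA was compared gene by gene on 4 arrays, 2 for each line, out of 12 in the series. iPS cells are body cells driven back towards an embryonic state by added transcription factors, here delivered with a transposon. Both lines carry the FHH rat background, had received no treatment that set them apart in the labels, and were collected 5 days after passage. In the labels both carry positive marks for SSEA-1 and for Oct4, Nanog and Sox2. The lines were grown with leukemia inhibitory factor on mouse embryonic fibroblasts whose division had been stopped with mitomycin C, and the treatment protocol names 2i medium, a mixture of kinase inhibitors. The other 8 arrays held the embryonic stem (ES) cell lines DAC2 and DAC8, of unstated strain and also kept in 2i, and the FHH embryonic fibroblast cultures REF1 and REF2 from e14.5 embryos in MEF medium, taken 6 days after passage, with 2 arrays each. Each iPS line is 1 derivation, so a difference between A1 and A2 is a difference between these lines and not between classes of cells. Nothing in the labels tells whether both arrays of 1 line stem from separate cultures, so the p-values rest on array-to-array spread that may be purely technical.

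The array carries probe sets for 14218 named genes. For each, the probe set brightest on average across all 12 arrays was used. Genes were tested where the higher of the 2 line means reached 5 on the deposited log2 scale, which left 9626 genes and set 4592 aside. The cut fell among genes of like level: Amph and Shank2 lay just inside, with higher line means of 5.0001 and 5.0009, and Cyp27b1 and Kif26b just outside, at 4.9977 and 4.9976. All values below are log2 signals or their differences, A1 minus A2, in which a difference of 1 is a doubling.

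Immediate early genes are switched on within minutes of a growth factor, a mechanical or a stress signal, without needing new protein first. Many of them, such as Fos and the Egr family, code for transcription factors. The heat shock genes code for chaperones, and the inducible Hspa1a is a classical target of the heat shock factor. Genes for glycolysis and for oxygen sensing are raised by the hypoxia-inducible factors when oxygen falls. In pluripotent cultures these programmes sit beside the signalling that decides between self-renewal and differentiation, such as ERK, BMP and Wnt.

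The labelled cell state was checked first against marker genes. Of 14 genes of naive and core pluripotency measured here, 9 reached the tested level in the iPS lines, and over the 14 genes the median level was 5.17 in A1 and 5.59 in A2, against 9.92 in DAC2. Over 47 neuronal genes the median level was 7.93 in A1 and 8.15 in A2, against 4.21 in DAC2. Esrrb, Tfcp2l1 and Nr0b1, factors of the naive state, and the epithelial surface genes Cdh1 and Epcam were under 5 in both lines. These markers go against the label of pluripotent cells, and "iPS" is used below only as the lines' labelled name. Sox2, a pluripotency and neural factor, stood at 9.46 and 9.40 in the A1 arrays and 9.36 and 9.25 in the A2 arrays. Among the arrays that entered only through the estimate of spread, those labelled DAC8 had a fibroblast-like profile, with a median of 11.47 over 38 fibroblast and mesenchyme genes against 4.65 in DAC2, and those labelled REF2 an ES-like one, at 4.73 against 11.50 in REF1. Array medians were 5.37 to 5.41 in the 4 iPS arrays. Poly-A control transcripts, which are added to the RNA before labelling, were higher in A1 by a median of 0.30 over 21 probe sets (range 0.20 to 0.38, with A1 above in 20), while hybridization controls differed by a median of 0.06 over 18. The part of these controls in the line difference was not tested.

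The 2 lines were close, but not interchangeable. The SD of gene differences was 0.160 between the 2 arrays of A1 and 0.150 between those of A2, and 0.195 to 0.215 between an A1 and an A2 array. Only 4 and 2 genes differed by 2-fold or more between arrays of the same line, against 27 to 30 between arrays of different lines. In limma, with the 6 lines as the factor, 195 of the 9626 genes passed an adjusted p under 0.05 and are termed called, a background of 2.03%. Of these, 133 were higher in A1 (1.38% of the genes tested) and 62 lower (0.644%). The median difference over all genes tested was 0.0033, and 51.2% of them lay above 0.

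Most called differences were small. They ran from 0.23 to 2.70 in size with a median of 0.48; 21 reached 2-fold (13 higher and 8 lower in A1), 64 reached 1.5-fold (37 and 27), and the other 131 stayed under 1.5-fold (96 and 35). In all 195 called genes both arrays of one line lay above both of the other, which also held for 4349 of the 9626 genes tested (45.2%). In 26 of the 195, and in 9 of the 21 at 2-fold or more, the lower line lay under 5. Such a gene was admitted by its higher line alone and had to differ, so its values are given below without a p-value or rank. Among the 9367 genes at 5 or above in both lines 118 were called higher (1.26%) and 51 lower (0.544%). A further 36 genes differed by 1.5-fold or more with arrays apart and were not called. With 2 arrays against 2, an exact two-sided permutation test cannot go below a p of 0.333, so each call rests on the spread shared over the lines. Leaving out one array left 92 calls without A1 replicate 1, 88 without A1 replicate 2, 74 without A2 replicate 1 and 98 without A2 replicate 2. Higher genes made up 45 of the 88 without A1 replicate 2. All 195 genes kept their direction in these 4 fits. Since the arrays of the lines did not overlap in any of the 195, this outcome was fixed in advance. Without the arrays labelled DAC8 and REF2 there were 120 calls, and with only the 4 iPS arrays 23, all 23 among the 195.

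**Figure D1:**
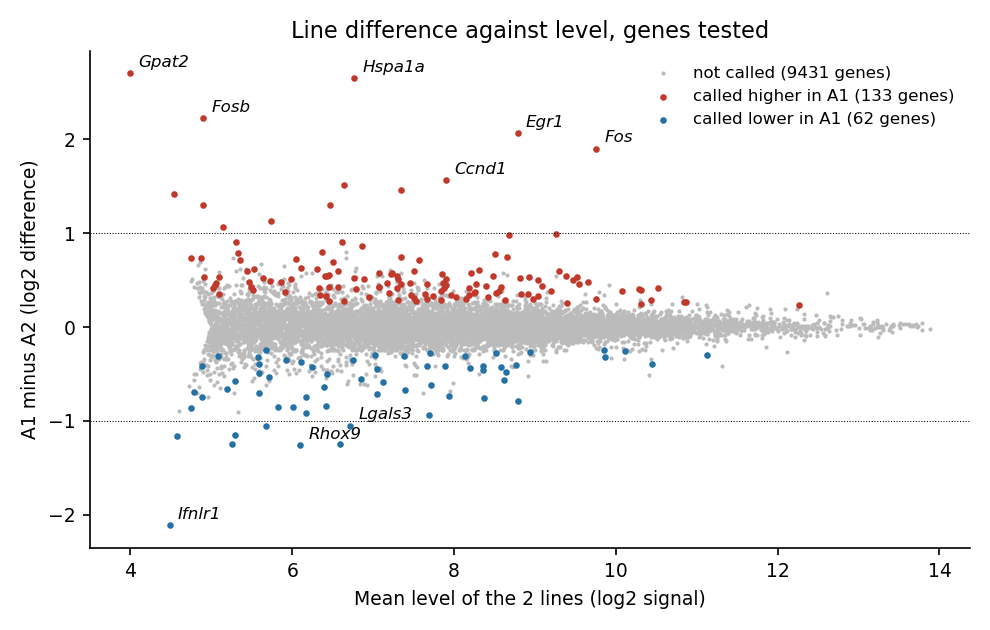
Difference between the lines (A1 minus A2, log2) against the mean level of both (log2 signal) for the 9626 genes tested; red points are the 133 genes called higher in A1, blue points the 62 called lower and grey points the rest. The dotted lines mark 2-fold, and most called genes lie well inside them, between 0.23 and 1 in size.

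Several immediate early genes were higher in A1. Of 28 on the array 18 reached the tested level; 8 were called higher in A1 and 0 lower, against 1.38% and 0.644% of all genes tested. The median over the 18 was 0.40, and 16 had both A1 arrays above both A2 arrays, which held for 24% of all genes tested. Fosb and Egr2 were admitted by A1 alone. Of the 16 genes at 5 or above in both lines 6 were called higher and 0 lower, with a median of 0.36: Egr1, Fos and Ccn1 rose by over 2-fold, Ier2, Ier3 and Klf6 by less.

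Egr1, a zinc finger transcription factor, read 9.69 and 9.93 in the A1 arrays and 7.64 and 7.87 in the A2 arrays. It was 4.16-fold higher in A1 (difference 2.06 ± 0.11 SE, limma adjusted p = 2.17e-05, n = 2 arrays a line). Fos, which pairs with Jun proteins to form the AP-1 factor, read 10.73 and 10.68 against 8.82 and 8.79. The arrays of each line almost coincided, and the difference was 1.90 ± 0.08 (SE, limma adjusted p = 3.36e-06, n = 2). Fosb, its close relative, read 5.89 and 6.14 in A1, and in A2 only 3.62 and 3.97, under the tested level. Egr2, at 5.15 and 5.36 against 3.92 and 3.74, likewise reached the tested level in A1 alone. Ccn1, a secreted matrix protein and target of both serum response factor and YAP, read 7.37 and 7.41 against 5.87 and 5.89, a 2.85-fold difference. In none of these 5 genes did the arrays of the 2 lines overlap.

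Smaller rises were called for Ier2, Ier3 and Klf6. Ier2, a short-lived nuclear protein, read 9.02 and 9.13 against 8.56 and 8.55 (difference 0.52). Ier3, a survival factor of the ERK pathway, differed by 0.43 and Klf6, a zinc finger factor, by 0.40, where the median SE over all genes tested was 0.0767. Atf3, a stress-induced factor, differed by 0.54 and Nr4a3, an orphan nuclear receptor, by 0.40, neither of them called (adjusted p = 0.175 and 0.246 in limma). Of the Jun family, the partners of Fos, Jun differed by 0.13, Jund by 0.01 and Junb by 0.32, and none was called (adjusted p = 0.628, 0.946 and 0.114 in limma). Nr4a2 alone lay below 0, at -0.18. Leaving out any single array kept the calls of Egr1, Fos, Ccn1 and Ier2. Ier3 lost its call without A1 replicate 2 (adjusted p = 0.0912) and without A2 replicate 1 (0.114), and Klf6 in all 4 such fits (0.0667 to 0.131). Of the called genes at 5 or above in both lines, Egr1, Fos and Ccn1 were also called with only the 4 iPS arrays in the fit. Ier2, Ier3 and Klf6 were not (limma adjusted p = 0.102 to 0.145).

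**Figure D2:**
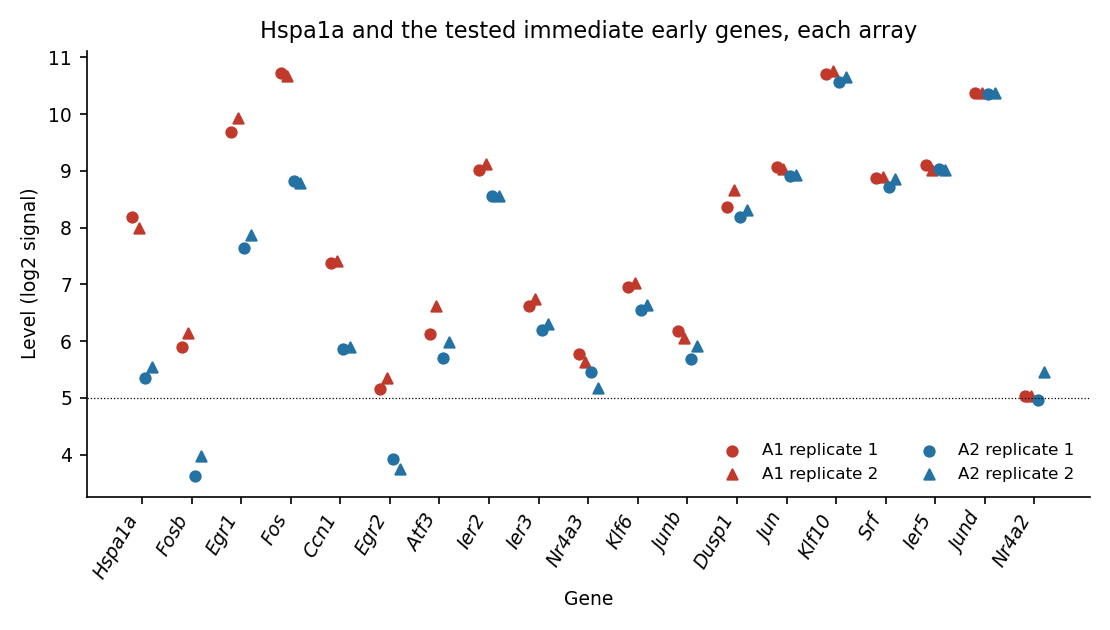
Level (log2 signal) of Hspa1a and of the 18 tested immediate early genes in each of the 4 iPS arrays; red marks are A1, blue marks A2, circles replicate 1 and triangles replicate 2, and the dotted line is the tested level of 5. From Hspa1a to Egr2 the red marks stand clear of the blue ones by more than 1, and from Jun to Jund they nearly coincide.

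The levels of these genes in the other cells were set beside them. Egr1 was 3.73 ± 0.10 in DAC2 and 10.46 ± 0.05 in REF1 (SD, n = 2), so that both iPS lines lay between, A1 at 9.81 ± 0.17 and A2 at 7.76 ± 0.17. Fos was 3.57 ± 0.10 in DAC2, 8.17 in the ES-like REF2, 8.28 in DAC8 and 9.36 in REF1, all below the 10.71 of A1. Ccn1 was 6.80 in DAC2 and 12.12 in REF1, far above both iPS lines, and Fosb lay under 4.3 in all 4 other lines.

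Serum response factor binds the CArG box, a short element with an AT-rich core, and its box in the promoter is a known feature of several immediate early genes. The 250 bases before the gene's start were searched on both strands in RefSeq's promoters of the assembly GRCr8. A CArG box was found in 1.5% of all 33469 promoters and in 1.36% of the 8103 tested genes with a promoter. It was in 4 of the 12 tested immediate early genes with a promoter (33.3%) and in 3 of the 6 called ones. The 3 were Egr1, with 2 boxes beginning 105 and 83 bases before the start, Egr2, with 1 at 83, and Klf6, with 1 at 201. Egr2 was admitted by A1 alone. Fosb, Ccn1 and Ier2 held none in this window. The promoters of Egr2 (chr20:21054442-21054691, minus strand) and Klf6 (chr17:69458479-69458728, minus strand) are shown for the box, in capitals, in a gene that differed by over 2-fold and in one that differed by less. A match is a description of the letters and not of binding.
Egr2: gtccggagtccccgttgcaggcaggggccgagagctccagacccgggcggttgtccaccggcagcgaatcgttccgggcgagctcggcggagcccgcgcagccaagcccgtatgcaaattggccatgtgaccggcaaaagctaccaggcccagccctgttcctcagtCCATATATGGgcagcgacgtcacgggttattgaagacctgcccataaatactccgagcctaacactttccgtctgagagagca
Klf6: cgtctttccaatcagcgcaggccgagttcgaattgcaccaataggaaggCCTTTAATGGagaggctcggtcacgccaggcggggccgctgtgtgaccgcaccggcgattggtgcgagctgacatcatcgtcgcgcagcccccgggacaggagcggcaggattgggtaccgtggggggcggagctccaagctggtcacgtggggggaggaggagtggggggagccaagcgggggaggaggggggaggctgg

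Hspa1a, the stress-inducible 70-kDa chaperone, had the largest difference among the genes that reached the tested level in both lines. It read 8.18 and 8.0 in the A1 arrays and 5.35 and 5.54 in the A2 arrays, 6.27-fold higher in A1 (difference 2.65 ± 0.09 SE, limma adjusted p = 1.49e-06, n = 2). Both A1 arrays stood more than 2 units above both A2 arrays, and the call held in all 16 alternative fits. A near-identical copy, Hspa1b, was not measured separately here, so the probe set may read both. In the other lines Hspa1a had a level of 6.84 (DAC2), 7.77 (REF2), 8.55 (DAC8) or 8.27 (REF1), so A2 had the lowest level of the 6 lines.

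The rest of the heat shock group did not follow it. Of 22 tested heat shock and chaperone genes Hspa1a was the only one called (1 higher, 0 lower), where 2.03% of all genes tested were called. The median was 0.04 against 0.0033 over all genes tested. Dnajb1, the main co-chaperone of Hspa1a, differed by 0.05 (9.46 in A1), Hsph1 by -0.16, Bag3 by 0.11 and Hsp90ab1 by 0.07. Hspb8, a small heat shock protein, stood at -0.61 (limma adjusted p = 0.0905) and Hspa4l at 0.41 (0.33), the widest of the uncalled members. Paired heat shock elements, written GAANNTTC or TTCNNGAA, each of which reads the same on both strands and can overlap the other, were found in 13.5% of all promoters, in 10.4% of tested genes and in 12 of the 20 tested members with a promoter; Hspa1a held no match in this window.

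Serpinh1 codes for Hsp47, a collagen chaperone of the endoplasmic reticulum that is under heat shock control in other cells. It read 9.76 in both A1 arrays and 8.80 and 8.75 in A2, a difference of 0.99 ± 0.06 (SE, limma adjusted p = 6.54e-05, n = 2). The A1 arrays were equal to 2 decimals and lay 0.96 or more above A2. With the mean of its probe sets in place of the brightest one the difference was 0.56. Its promoter (chr1:163062977-163063226, minus strand, GRCr8) is shown because 2 overlapping matches to the paired element, in capitals, begin 35 and 30 bases before the start.
Serpinh1: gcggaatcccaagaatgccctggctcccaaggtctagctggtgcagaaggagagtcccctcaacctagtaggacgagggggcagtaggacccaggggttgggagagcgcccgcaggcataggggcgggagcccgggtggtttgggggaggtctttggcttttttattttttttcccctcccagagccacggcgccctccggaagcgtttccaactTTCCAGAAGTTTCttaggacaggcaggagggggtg

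Of 35 tested genes of the response to unfolded protein in the endoplasmic reticulum and of ATF4 targets, 3 were called higher (8.57%, against 1.38% of all genes tested) and 0 lower, with a median of 0.05. They were Nupr1, a stress-induced chromatin factor (8.48 and 8.52 in A1, 7.88 and 7.97 in A2, difference 0.58), Vldlr, a lipoprotein receptor (8.09 and 8.18 against 7.51 and 7.63, 0.56), and Cebpb (0.49), and none of the 3 is a chaperone. The other probe sets of Vldlr gave smaller differences of 0.32, 0.18 and 0.08, and in the last of these the arrays of the lines overlapped. Sensors and chaperones of the response were not called, with Hspa5 at -0.03, Ddit3 at -0.05, Atf4 at 0.13 and Xbp1 at -0.12. Without A2 replicate 1 none of the 3 was called (adjusted p = 0.0553 to 0.0845 in limma), and Cebpb was also lost without A1 replicate 2 (0.0755).

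ERK signalling, which the MEK inhibitor of 2i medium is meant to block, has a set of well known output and feedback genes. Of 9 tested, 4 were called higher in A1 and 0 lower, against 1.38% and 0.644% of all genes tested, with a median of 0.39: Egr1, Ier3, Ccnd1 and Dusp6, Egr1 and Ier3 being shared with the immediate early genes. Ccnd1, the G1 cyclin that links growth factors to the cell cycle, read 8.75 and 8.62 in A1 and 7.13 and 7.12 in A2, a 2.94-fold difference (1.56 ± 0.08 SE, limma adjusted p = 1.67e-05, n = 2). Its other 2 probe sets gave 1.45 and 1.47, and its level in DAC2 was 10.27. Dusp6, the phosphatase that switches ERK off, read 5.68 and 5.75 against 4.94 and 5.07, and its difference was 0.71 ± 0.08 (SE, limma adjusted p = 0.00252, n = 2). Spry4 and Spry2, receptor feedback inhibitors, differed by 0.39 and 0.21 and were not called (adjusted p = 0.173 and 0.268 in limma).

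The cell cycle genes did not move with Ccnd1. It was the 1 called gene of 33 tested for the cell cycle and DNA replication, whose median was -0.03, with 2.03% called over all genes tested. The p53 targets and CDK inhibitors had 1 called gene of 20, Gadd45b (difference 0.54), which lost its call without each of 3 arrays (adjusted p = 0.0591 to 0.0877 in limma) and is also an early-response gene. Mdm2 stood at 0.01 and Cdkn1a at 0.15. Of 6 tested histone genes H1f2, a linker histone, fell, with a difference of -0.48 that was not called with any one array left out (adjusted p = 0.0897 to 0.158).

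Genes of the hypoxia response and glycolysis were slightly higher in A1 almost throughout. Of 30 tested genes 28 had a positive difference, 26 had both A1 arrays above both A2 arrays, against 24% of all genes tested, and the median was 0.18, against 0.0033. In limma 9 were called higher and 0 lower, against 1.38% and 0.644% of all genes tested. The count depended on the fit and the filter: 1 gene, P4ha1, was called with each single array left out, 4 without the arrays labelled DAC8 and REF2, 2 with no filter on level and 0 with the 4 iPS arrays alone.

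P4ha1, a prolyl hydroxylase that matures collagen and a target of the hypoxia-inducible factor, read 9.81 and 9.77 in A1 and 9.23 and 9.29 in A2. It was 1.44-fold higher (difference 0.53 ± 0.07 SE, limma adjusted p = 0.00512, n = 2), and no arrays overlapped. Pdk1, the kinase that keeps pyruvate out of the mitochondria, read 9.28 and 9.30 against 8.76 and 8.82 (difference 0.50). Ankrd37, a small hypoxia target, read 7.39 and 7.42 against 6.91 and 6.97 (0.47), and Aldoc, the brain aldolase, 8.18 and 8.07 against 7.72 and 7.63 (0.45). The replicate arrays of these genes differed by no more than 0.11, and the line means by 0.45 or more.

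The other 5 called members were smaller. Ndrg1, a growth regulator raised by low oxygen, read 10.54 and 10.48 against 10.13 and 10.12 (0.39), and Vegfa, the vascular growth factor, 7.37 and 7.38 against 6.96 and 7.07 (0.36). Bnip3, a mitophagy receptor, differed by 0.29, Pfkm, the muscle phosphofructokinase, by 0.29 and Aldoa by 0.23, the smallest called difference of all. With any one array left out these 5 and Pdk1, Ankrd37 and Aldoc had adjusted p-values of 0.0591 to 0.193 in limma. The classical glucose transporters lay on the other side, Slc2a1 and Slc2a3 each at -0.10 (adjusted p = 0.583 and 0.42), and the abundant enzymes Ldha, Pgk1, Eno1 and Gapdh at 0.09, 0.12, 0.12 and 0.04 were not called.

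**Figure D3:**
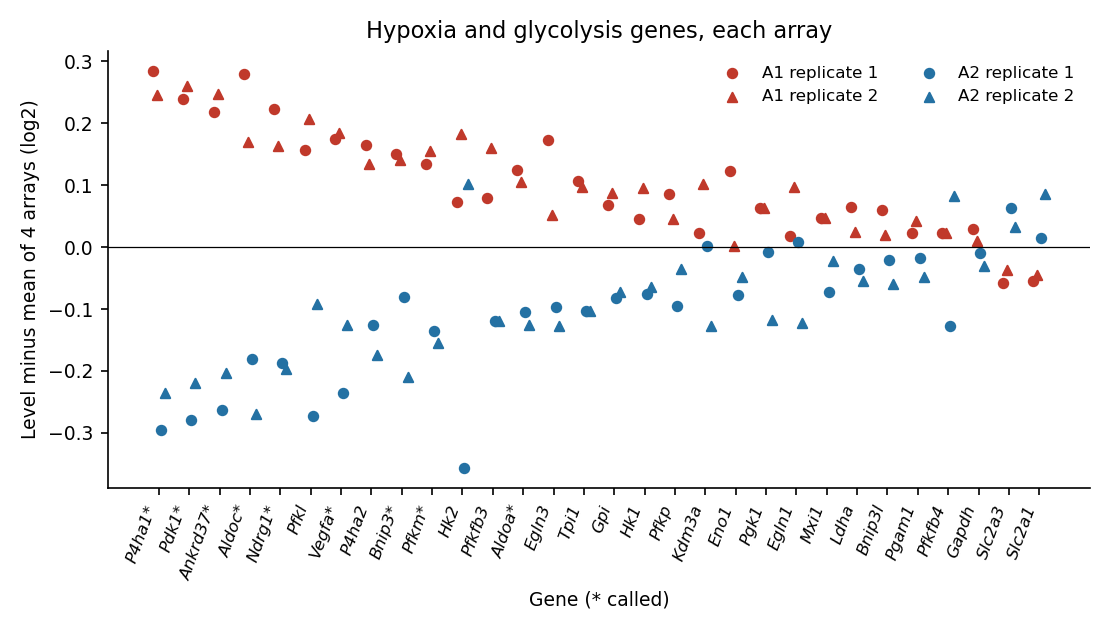
Level of the 30 tested hypoxia and glycolysis genes in each array, as the log2 signal minus the mean of the 4 iPS arrays, ordered by difference; red marks are A1, blue marks A2, circles replicate 1, triangles replicate 2, and asterisks mark the 9 called genes. The red marks lie above the blue ones in 26 genes, and Slc2a3 and Slc2a1 at the right show the opposite order.

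Single called genes outside the list are given as examples, chosen after their values were seen, and say nothing about a group. Plod2, a lysyl hydroxylase for collagen, read 9.64 and 9.67 against 9.12 and 9.11 (0.54). Slc16a3, the lactate exporter of glycolytic cells, read 8.64 and 8.60 against 7.99 and 8.02 (0.61), and Stc2, a secreted stress glycoprotein, 5.76 and 5.72 against 5.17 and 5.11 (0.60). These 3 kept their calls with each array left out.

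The hypoxia-inducible factor binds the core letters ACGTG or GCGTG. Searched on both strands of the 250 bases before the start, with overlapping matches allowed, this core was in 36.7% of all promoters, in 60.1% of the tested genes, in 20 of the 26 tested members with a promoter (76.9%) and in 7 of the 8 called ones (87.5%). The core is thus common in these GC-rich windows. Those of P4ha1 (chr20:27844796-27845045, plus strand), Ankrd37 (chr16:53001257-53001506, plus strand) and Bnip3 (chr1:203154963-203155212, minus strand) are shown because they hold 2, 4 and 4 matches, in capitals, some of them overlapping or on the reverse strand.
P4ha1: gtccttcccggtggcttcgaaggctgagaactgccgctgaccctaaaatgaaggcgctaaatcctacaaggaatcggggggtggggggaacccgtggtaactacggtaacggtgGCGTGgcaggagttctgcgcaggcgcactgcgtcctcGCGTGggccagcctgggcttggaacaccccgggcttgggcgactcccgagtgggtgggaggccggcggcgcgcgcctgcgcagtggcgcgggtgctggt
Ankrd37: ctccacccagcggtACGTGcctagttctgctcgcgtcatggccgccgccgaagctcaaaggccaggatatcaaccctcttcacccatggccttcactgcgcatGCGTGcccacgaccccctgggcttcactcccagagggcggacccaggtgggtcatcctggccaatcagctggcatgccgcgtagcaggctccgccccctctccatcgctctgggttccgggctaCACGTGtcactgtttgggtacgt
Bnip3: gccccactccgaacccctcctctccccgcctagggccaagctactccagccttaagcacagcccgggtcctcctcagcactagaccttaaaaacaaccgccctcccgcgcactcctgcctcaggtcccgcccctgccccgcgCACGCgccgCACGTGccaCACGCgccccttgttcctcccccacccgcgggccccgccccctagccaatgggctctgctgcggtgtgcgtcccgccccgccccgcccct

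Genes for the extracellular matrix and its assembly moved in both directions. Lox, the lysyl oxidase that cross-links collagen, rose (7.62 and 7.41 against 6.96 and 6.94, difference 0.57), while its relative Loxl1 fell (7.21 and 7.24 against 8.15 and 8.17, difference -0.94 ± 0.13 SE, limma adjusted p = 0.00898, n = 2). They were the 2 called genes among 20 tested fibroblast and mesenchyme genes, whose median was 0.10, with 2.03% called over all genes tested. Lox kept its call only without A1 replicate 2 (adjusted p = 0.0333, otherwise 0.0944 to 0.101), and Loxl1 lost it with any one array left out (0.0505 to 0.0591). Lamb1, a laminin chain, rose by 0.35, a call lost with any one array left out (0.0519 to 0.0801). Because the lines grew on mouse fibroblasts, the whole fibroblast list was summed: the sum of linear signals was 6403 and 6337 in the A1 arrays and 5825 and 6111 in the A2 arrays, with 18 of its 38 measured genes under 5 in both lines. The part of fibroblast RNA in the matrix differences was not tested. Col5a1, Fbn1, Fn1 and Sparc, matrix genes that fibroblasts express highly, stood at -0.13, -0.03, 0.10 and 0.11, none of them called.

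Further called genes of the cell surface and matrix are examples, all but Igfbp2 and Lgals3 chosen after their values were seen. Of all 195 called genes 68.2% were higher in A1. Anxa5, a phospholipid-binding protein, read 9.02 and 9.01 against 8.23 and 8.33 (0.74), Gpc3, a growth-regulating glypican, 7.18 and 7.4 against 6.28 and 6.58 (0.86), and Tgfbi, a TGF-beta induced matrix protein, 9.71 and 9.74 against 9.23 and 9.21 (0.50). Igfbp2, which binds insulin-like growth factors, read 9.22 and 9.13 against 8.23 and 8.15, a 1.97-fold difference (0.98 ± 0.08 SE, limma adjusted p = 0.000201, n = 2). Nid1 (0.44), Anxa2 (0.42) and Lgals1 (0.38) were also called higher. Lgals3, a galectin like Lgals1, was lower, at 6.18 and 6.2 in A1 and 7.20 and 7.29 in A2 (difference -1.05 ± 0.06 SE, limma adjusted p = 2.17e-05, n = 2), and kept its call in all 16 alternative fits.

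Signals and factors of embryonic patterning were also split between the lines. BMP and SMAD targets included 3 called genes that fell in A1 and 1 that rose, of 14 tested, with a median of -0.13. Among all genes tested 0.644% were called lower and 1.38% higher. Id3 and Id1, inhibitors of differentiation and direct BMP targets, read 6.62 and 6.52 against 7.13 and 7.11 (-0.55), and 10.28 and 10.24 against 10.65 and 10.64 (-0.39). Both kept their calls with any array left out. The ligand Bmp7 read 7.04 and 6.63 against 7.37 and 7.48 (-0.59), called only without A1 replicate 1 (adjusted p = 0.00192, otherwise 0.0567 to 0.151 in limma), the A1 array nearer to A2. The ligand Bmp4 read 5.24 and 5.35 against 4.72 and 4.93, under the tested level in A2, and lost its call without A1 replicate 2 and without A2 replicate 1. Id2 and Noggin (Nog), at -0.33 and 0.72, were not called (adjusted p = 0.0903 and 0.0905).

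The Notch effectors Hes1 and Hes5 moved in opposite directions. Hes1 read 7.30 and 7.43 in A1 and 6.76 and 6.82 in A2 (0.57), and Hes5, the form typical of neural progenitors, 8.04 and 8.21 against 8.65 and 8.53 (-0.46). They were the 2 called genes among 12 Notch and Hes genes and also among 20 neural progenitor genes, whose medians were -0.04 and -0.01. Over all genes tested 2.03% were called. Hes1 lost its call without A1 replicate 2 (adjusted p = 0.0584 in limma) and without A2 replicate 1 (0.0625), and Hes5 was called only without A1 replicate 2 (0.0445, otherwise 0.0638 to 0.145). In the Wnt list of 10 genes Tcf7l1, a repressor of Wnt targets in pluripotent cells, fell by 0.42, with Bmp4 as the other call. That of Tcf7l1 was lost with any array left out (0.0755 to 0.186).

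Single developmental regulators were also called. Mab21l2, a gene of eye and neural tube development, read 7.99 and 8.16 against 6.62 in both A2 arrays (difference 1.46 ± 0.07 SE, limma adjusted p = 1.67e-05, n = 2). Sall1, a zinc finger factor of kidney and neural development, read 5.49 and 5.60 against 4.03 and 4.46, where A2 was under the tested level. Fgf19, a growth factor named so in the array's gene table, read 6.14 and 6.46 against 5.07 and 5.28 (1.13), and Prph, a neuronal intermediate filament, 5.42 and 5.93 against 4.38 and 4.85, again with A2 under the tested level. Mab21l2 kept its call with each array left out. Fgf19 lost its call in all 4 such fits. Sall1 and Prph were admitted by A1 alone and had to differ.

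Of 20 listed Hox genes on the array, factors that set position along the body axis, Hoxa7 alone reached the tested level, at 5.90 and 5.78 against 5.33 and 5.11 (0.62). It lost its call with any array left out (adjusted p = 0.0703 to 0.178 in limma). Hoxa3l1, a gene of the same cluster outside the list, read 5.16 and 5.32 in A1 and was under that level in A2, at 4.54 and 4.47. Other listed genes of the cluster were under 5 in both lines and were not tested: Hoxa9 stood at 4.53 ± 0.13 in A1 and 2.29 ± 0.10 in A2 (SD, n = 2), Hoxa10 at 4.67 ± 0.09 and 2.94 ± 0.22, Hoxa5 at 4.51 ± 0.08 and 3.60 ± 0.04, and Hoxa11 at 4.73 ± 0.13 and 4.36 ± 0.22. Among them Hoxa9 had the widest gap between its line means. These 4 are singled out after their values were seen.

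Markers of cell identity differed little. Of 41 tested neuronal genes 0 were called in limma; their median was -0.06 and they ran from -0.61 for Ebf1 (adjusted p = 0.0561) to 0.42 for Nefh. Both A1 arrays lay below both A2 arrays in 15 of the 41 genes, against 21.2% of all genes tested, and above in 10, against 24%. The neuronal list summed to 52266 and 52319 in the A1 arrays and 53246 and 53416 in the A2 arrays. Stmn2, Tubb3, Map2 and Rtn1, all abundant neuronal genes, differed by 0.05, 0.04, 0.01 and 0.01. In the bulk RNA of a culture, fewer cells of a type and less RNA per cell cannot be told apart.

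Among 9 tested pluripotency genes 1 was called, against 2.03% of all genes tested. Klf4, one of the reprogramming factors, read 6.80 and 6.90 in A1 and 6.2 and 6.11 in A2, a 1.62-fold difference (0.69 ± 0.06 SE, limma adjusted p = 0.000274, n = 2) that was called with each array left out. Its level was 10.01 in DAC2 and 7.65 in REF1, above both iPS lines. The labels do not give the transgenes' sequences, and whether the probe set reads a transgene was not tested. Of 22 epithelial junction and keratin genes on the array 15 were under 5 in both lines and not tested. These went both ways, such as Cdh1 at 3.45 in A1 and 4.10 in A2 and Krt19 at 4.06 and 3.24. All 7 tested ones had a positive difference, against 51.2% of all genes tested, and 2 were called, against 2.03%. The called ones were Cldn3, a tight junction claudin (6.51 and 6.30 against 5.68 and 5.71, 0.72), and Spint2, a protease inhibitor (7.31 and 7.27 against 6.76 and 6.97, 0.43). Spint2 was called only without A2 replicate 2 (adjusted p = 0.0211, otherwise 0.0801 to 0.116). Another claudin, Cldn11, fell, at 5.99 and 5.95 against 6.94 and 7.50, with its 2 A2 arrays 0.56 apart. It lost its call without A1 replicate 1 (0.0534) and without A1 replicate 2 (0.0617).

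Immune-related genes gave calls in both directions. Bst2 (tetherin), which holds budding virus at the cell surface, read 6.99 and 7.23 in A1 and 5.84 and 5.80 in A2, 2.46-fold higher. The interferon-induced membrane proteins Ifitm1 and Ifitm3 were lower, Ifitm1 at 8.42 and 8.39 against 9.23 and 9.15 (-0.79 ± 0.05 SE, limma adjusted p = 0.000104, n = 2) and Ifitm3 at 8.39 and 8.34 against 8.78 and 8.81 (-0.43). These 3 of the 11 tested genes of interferon and antigen presentation were called, against 2.03% of all genes tested. They kept their calls with any array left out. The other members stayed between -0.15 and 0.27, with B2m at 0.04, Stat2 at -0.15 and Isg15 at 0.27, so the list's median was 0.04. Ifnlr1, a receptor chain for interferon lambda, read 3.66 and 3.20 in A1, under the tested level, and 5.43 and 5.65 in A2. Il33, an alarmin cytokine, read 4.97 and 5.34 against 6.17 and 6.23 (-1.05), called only without A1 replicate 2 (0.04, otherwise 0.105 to 0.117).

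Other called genes belonged to no list. Gpat2, a glycerol phosphate acyltransferase best known from the germ line, read 5.26 and 5.45 in A1 and 2.56 and 2.75 in A2, where it was under the tested level. DAC2 had it at 8.67, and A2 lay near the 2.36 of REF1. Among the genes that fell, Rhox9, a homeobox gene of the X chromosome's reproductive cluster, read 5.21 and 5.72 against 6.56 and 6.89 (-1.26), and lost its call without A1 replicate 1 (adjusted p = 0.0589) and without A2 replicate 2 (0.0815). Scn4b, a sodium channel beta subunit, read 4.59 and 4.68 against 5.86 and 5.91, Coch, the inner ear matrix protein cochlin, 4.73 and 4.72 against 5.82 and 5.92, both under the tested level in A1, and Zcchc24 5.53 and 5.64 against 6.41 and 6.47 (-0.85). Zcchc24 was called with each array left out. Scn4b, Coch and Gpat2 were admitted by 1 line alone and had to differ.

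Cxxc4, Colgalt2 and Ccnjl fell by 0.92, 0.85 and 0.84, each losing its call in some of the fits with an array left out. S100a5 read 4.01 and 4.63 in A1 against 5.12 and 5.24, and Ano3 3.64 and 4.34 against 5.10 and 5.20, both under the tested level in A1 and called only without A1 replicate 2. Cxxc4 was called only without A1 replicate 1 (adjusted p = 0.0465 in limma), and Colgalt2 in none of these fits (0.0572 to 0.122). Ccnjl was called without A1 replicate 2 (0.04) and without A2 replicate 2 (0.0364), and not without A1 replicate 1 (0.0999) or A2 replicate 1 (0.12). Among the smaller falls, chosen as examples after their values were seen, were the growth factor receptor Fgfr3 (5.72 and 5.88 against 6.45 and 6.62, -0.74), the chemokine Cxcl12 (7.31 and 7.49 against 7.92 and 8.11, -0.62) and the growth factor Egf (5.95 and 6.19 against 6.70 and 6.71, -0.64). Egf was called only without A1 replicate 2 (0.0282, otherwise 0.0851 to 0.0919).

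Of the 32 lists 10 had no called member in limma, where 2.03% of all genes tested were called, so that a count of 0 in a list of this size is near the background. They were oxidative stress and NRF2 targets (15 tested, median 0.01), neurons (41, -0.06), blood and macrophage (4, 0.26, all 4 above 0), muscle (3, -0.07), mesoderm and primitive streak (1, 0.03), imprinted genes (19, -0.03), DNA methylation and chromatin (22, -0.02), ribosomal proteins (24, 0.01), circadian clock genes (13, 0.12, with 11 above 0) and sex chromosome genes (6, -0.01). Ribosomal proteins ran only from -0.05 to 0.05, and imprinted genes from -0.26 to 0.26, with H19 at -0.22 (adjusted p = 0.157) and Igf2 at -0.03. Of 38 genes of the mitochondrial respiratory chain Ndufb5 was called higher (0.27), and of 34 splicing factors Srsf3, whose probe set read 5.62 and 5.83 against 4.67 and 5.19, with A2 under the tested level. The splicing list as a whole went the other way, with 23 genes lower and 11 higher in A1 and a median of -0.06. Both A1 arrays lay below both A2 arrays in 17 of them, against 21.2% of all genes tested, and above in 7, against 24%. Of 25 genes of cholesterol and lipid synthesis Scd, the fatty acid desaturase, was called (0.37). Of 4 endothelial genes it was Eng, a TGF-beta co-receptor (5.30 and 5.16 against 4.81 and 4.83, with A2 under the tested level). Ndufb5 and Scd lost their calls with any array left out (adjusted p = 0.0838 to 0.228). Srsf3 and Eng were admitted by A1 alone and had to differ, and neither kept its call with every array left out. The 32 lists together held 516 tested genes, of which 46 were called.

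The consistency of small differences was checked in the probe sets that had not represented their gene. Of the 195 called genes, 40 had other probe sets that also reached 5 in a line, 47 in all. The sign matched in 42 of the 47 (89.4%), against 2018 of 3379 (59.7%) for genes that were not called. It matched in 9 of 9 for genes at 1.5-fold or more and in 33 of 38 (86.8%) for those under 1.5-fold. The second probe set gave a median of 0.72 of the first one's difference. These sets share the RNA and the array with the first, so they are no new replicates. A set was admitted by its higher line mean, so some passed through a single line, such as a set of Dusp6, of Fst and of Plpp3. Agreement was not counted apart for sets at 5 or above in both lines, so these shares are only a description.

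Examples show both outcomes. The other probe set of Mab21l2 gave 1.45, that of Rhox9 -1.38 and that of Il33 -0.78, close to the values above. Dusp6 gave 0.63, with A2 under 5 at 4.46 and 4.80, and Lox gave 0.51. The 2 of Cxcl12 gave -0.65 and -0.68, and those of the hypoxia genes Vegfa, Ndrg1, Pfkm and Pdk1 gave 0.23, 0.19, 0.26 and 0.15. All had the same sign as the first set, and most were smaller. The sign did not match for Nid1 (-0.01 against 0.44), Cdh13 (-0.01 against 0.53), Dcun1d1 (-0.04 against 0.28), 1 of 2 sets of Plpp3 (0.16 against -0.58) and 1 of 2 of Zmiz1 (0.10 against -0.30). Among 45 other probe sets that stayed under 5, 33 matched in sign, with a median of 0.18 of the first difference. One of them is a second Fos probe set, at 4.56 and 4.51 in A1 and 4.92 and 4.58 in A2, a difference of -0.21 against 1.90, so that the mean of the probe sets for Fos gives 0.84.

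**Figure D4:**
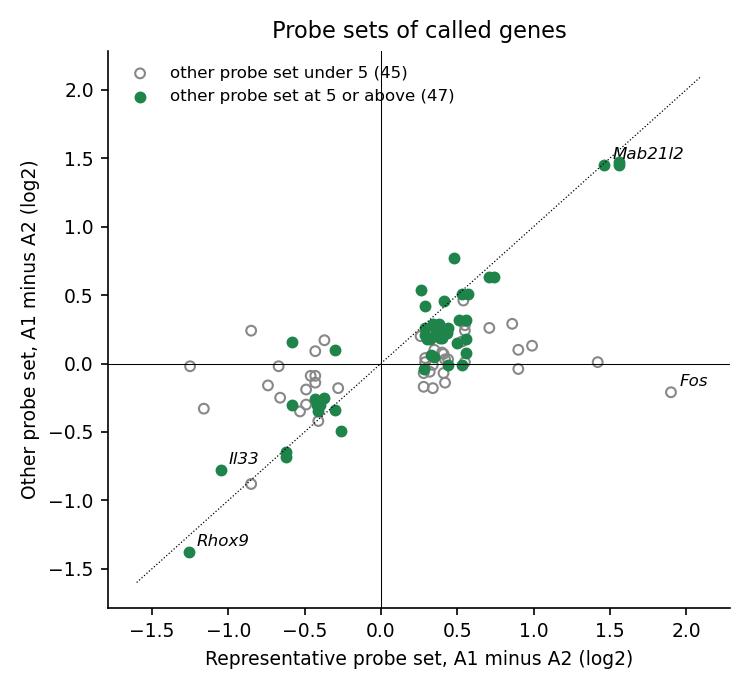
Difference (A1 minus A2, log2) of the other probe sets of called genes against that of the representative probe set; filled green points are the 47 that reach 5 in a line, open grey points the 45 that do not, and the dotted line is equality. Of the filled points 42 lie in the quadrants of matching sign, while open points such as the second Fos set lie near 0.

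Small differences of the same sign gathered in 1 stretch of the genome. This was noticed after the values were seen and is given without a test. In the gene order of GRCr8, with 9596 tested genes placed, the median difference was taken over windows of 25 neighbouring genes. Of 9090 windows, 98.9% had a median within 0.1 of 0. A run of 88 neighbouring genes on chromosome 2, from Trio to Mgarp, passed it, up to a window median of 0.228. The largest window median outside this run was 0.113 and the next longest runs held 5 genes each, on chromosomes 3 and X.

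The run was chosen by its A1 minus A2 differences, so its shares and medians describe the choice and support nothing. Within it the median difference was 0.175, or 1.13-fold (quartiles 0.112 and 0.284), and 77 of the 88 genes were higher in A1 (87.5%). Both A1 arrays lay above both A2 arrays in 67 genes and below in 4. In limma 14 were called higher and 1, Cldn11, lower, 17.0% of the run. Anxa5, at 0.74, was the largest, followed by Mgarp (0.54), Tpd52 (0.53), Fndc3b (0.44), Jade1, a chromatin factor (0.43), Hps3 (0.43), Plk4, the kinase that duplicates centrioles (0.40), Hltf (0.32), Zfand1 (0.32), Pex2 (0.30), Mrpl47 (0.30), Dcun1d1 (0.28), Ndufb5 (0.27) and Ect2, a guanine exchange factor of cell division (0.25). Of these, Anxa5 and Jade1 kept their calls with each array left out. Sox2 lies in the run, with a difference of 0.12 that was not called (adjusted p = 0.683).

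In the same arrays that chose the run, its median was 0.149 to 0.236 in the 4 pairings of an A1 with an A2 array, and -0.036 and -0.015 between the arrays of A1 and of A2. It was -0.079 between DAC2 and REF2 and 0.025 between DAC8 and REF1. Of 43 other probe sets, which share these arrays, of 28 of its genes 35 were higher in A1, with a median of 0.161. Windows of 15 and 51 genes gave runs of 91 and 85 genes, and leaving out one array gave 82 to 101. Without the run's genes 180 calls remain of the 195, 119 of them higher. Whole chromosomes differed little, with medians of -0.010 to 0.021 over 21 chromosomes.

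**Figure D5:**
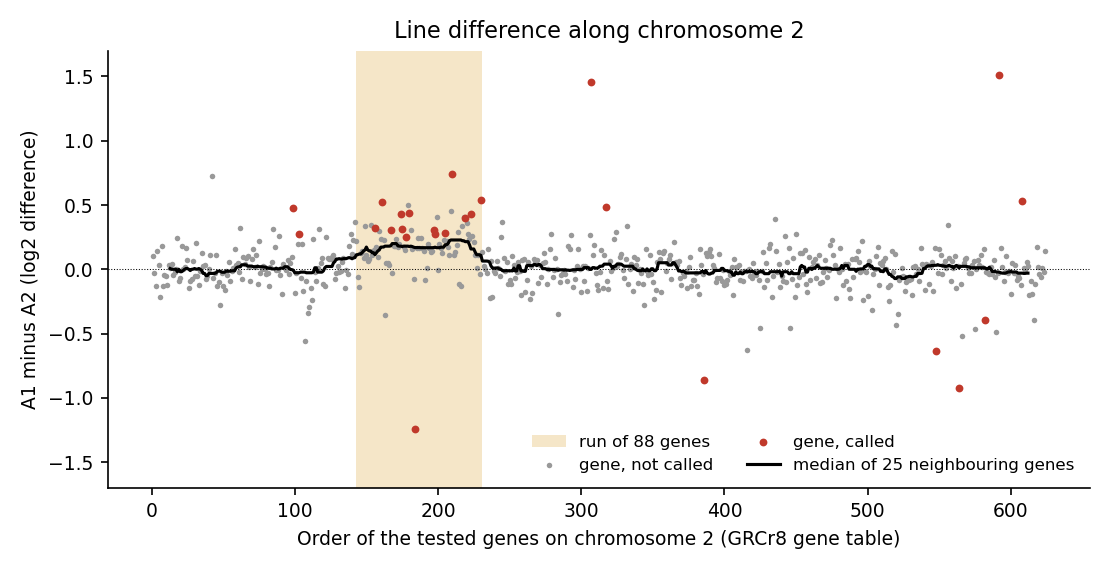
Difference (A1 minus A2, log2) of the tested genes of chromosome 2 in the order of the GRCr8 gene table; red points are called genes, grey points the others, the black line is the median of 25 neighbouring genes and the shaded band is the run of 88 genes. The black line rises to between 0.1 and 0.228 in the band and stays near 0 elsewhere on the chromosome.

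Called genes that are next to each other among the tested genes were few. Of 9 such pairs 8 had the same direction, while 52.3% of all 9574 adjacent pairs did. They include Ifitm1 with Ifitm3, Mpzl2 with Scn4b, Hoxa3l1 with Hoxa7, Trpc1 with Pls1 (0.52 and 0.90), Tmem176a with Gpnmb (0.62 and 0.43) and Cotl1 with Klhl36 (0.38 and 0.35), besides Mrpl47 with Ndufb5 and Hps3 with Hltf of the run on chromosome 2. The pair that differed in direction was Lingo1 with Snx33 (0.32 and -0.71). Scn4b, Hoxa3l1 and Klhl36 were each admitted by a single line and had to differ. The pairs of the run were chosen by their differences. Of all called genes 68.2% were higher in A1, so the share over all adjacent pairs is not a like baseline. The count of pairs is a description and supports nothing.

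The distance between A1 and A2 was smaller than that of the other pairs of like profile in the series. In the same limma fit, each with its own genes above the level, 5010 of 9759 genes (51.3%) were called between DAC2 and REF2, 421 of them at 2-fold or more, and 2302 of 9825 (23.4%) between DAC8 and REF1, 164 of them at 2-fold or more. Those pairs carry different labels for cell type, unlike A1 and A2. Of the 195 genes called between A1 and A2, 166 were also tested between DAC2 and REF2 and 115 of them called (69.3%), and 167 were tested between DAC8 and REF1 with 79 called (47.3%). Fos differed by -4.60 between DAC2 and REF2 and by -1.09 between DAC8 and REF1, Hspa1a by -0.93 and 0.28, Igfbp2 by 1.58 and 0.90, and Lgals3 by -0.38 and -1.31.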

How the data were processed

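RNA from 6 rat lines, 2 arrays each, was amplified from about 100 ng and hybridized to single-colour arrays, per the labels' protocols. The authors deposited log2 signals for 31099 probe sets, and the tools listed per the submitters' processing notes are RMA and Partek 6.2. Joint normalization of the 12 arrays is not stated in those notes or labels. RMA compresses differences of dim genes. The number of arrays limits the precision.

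Gene symbols came from the platform's table (20832 with 1 symbol, 436 with several, 9831 with none). Groups came from the labels. limma 3.58.1 (R 4.3.3) was fitted to all 12 arrays with the 6 lines as the factor, contrast A1 minus A2, moderated by empirical Bayes. P-values were adjusted by Benjamini-Hochberg over the 9626 genes tested, and genes were called at adjusted p under 0.05. Named are Hspa1a, Egr1 and Fos, in each direction the 15 largest called differences whose arrays did not overlap, and up to 4 called members of each of 32 gene lists; other genes were chosen after their values were seen, including the members of the chromosome 2 run, the adjacent pairs, the examples of other probe sets and further list members. Some genes are not reported here. The comparison and the lists were chosen with earlier results of these data known.

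The fit was tested on simulated arrays. With true differences of 0.25, 0.5, 1 and 2 (log2), the share of genes recovered was 22%, 76%, 100% and 100%. Of 155 calls 6 were false (3.87%). These shares describe the simulated arrays alone. Whether they hold for the deposited arrays, whose spread within a line may be purely technical, was not tested. Promoters were RefSeq's for GRCr8. Alternatives were other arrays in the fit, a replicate block, other filters, scalings and probe set rules, an intensity trend, and fits lacking 1 iPS array each. The alternatives for the chromosome 2 run were chosen after seeing the data.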

Additional observations from a re-analysis of the deposited data

How the results depend on the processing

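The count of 195 called genes was 142 with no filter on level, 195 with a filter at 6, 187 with equal medians and 192 to 204 under the other probe set rules. It moved to 312 with quantile normalization and 349 with an intensity trend, to 120 without the arrays labelled DAC8 and REF2, to 23 with only the 4 iPS arrays, and to 74 to 98 with an array left out. The cause of these moves was not tested. The replicate number did not pair the arrays by the labels (the deviations of same-numbered arrays correlated at r = 0.19 over genes): a replicate block over all 12 arrays gave 189 calls, and over the 4 iPS arrays 17. With only the 4 iPS arrays, and there with the replicate block, the list genes called fell from 46 to 10 and 7, the named genes from 59 to 19 and 17, the immediate early genes from 8 to 5 and 4 and the hypoxia genes from 9 to 0 and 0. The 8 and the 5 immediate early genes include Fosb and Egr2, which were admitted by A1 alone and had to differ. Hypoxia calls were 4 without the arrays labelled DAC8 and REF2 and 2 with no filter. Counting only genes at 5 or above in both lines, chosen after seeing the data, left 169 of the calls. With an array left out the list genes called were 18 to 28, the named genes 28 to 38, the immediate early genes 6 to 7 and the hypoxia genes 1 in each fit. The range of chromosome medians, 0.031, was 0.028 to 0.041 with an array left out. Of 925 alternative values of the named genes 702 kept direction and call, 223 kept direction alone and 0 reversed. In fits with an array left out a reversal was impossible, because the arrays of the lines did not overlap in these genes. Fits that changed only the filter or the other lines' arrays left the differences as they were. Signal near background limits genes under 5 in a line, 26 of the 195.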

Other observations

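Probe sets without a gene symbol were compared in the same way. Of 9780 such probe sets 3830 reached 5 in a line and 62 were called in limma (1.62%), 40 higher and 22 lower in A1. The largest rise was from 5.91 in A2 to 8.21 in A1 (difference 2.29 ± 0.07 SE, limma adjusted p = 5.52e-07, n = 2). The largest fall was -1.33 ± 0.20, with 5.20 in A1 and 6.53 in A2. One more called probe set read 5.65 in A1 and 3.8 in A2, and another 4.05 in A1 and 5.14 in A2. Both were admitted by 1 line alone and had to differ. The genes behind them are not named in the table used here.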
